A study of Homo sapiens with 24 samples.

Results

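The ATP-binding cassette (ABC) transporter genes were examined in 24 arrays of sorted human breast cancer cells. A gene was included if its symbol was ABC, a letter from A to G and a number with nothing after it, and if a probe set named that gene alone. This gave 41 of 22395 named genes, of which 12 belonged to subfamily A, 6 to B, 11 to C, 3 to D, 1 to E, 3 to F and 5 to G. Of the 41, RefSeq lists 40 as protein-coding, and the other one, ABCC13, is a transcribed pseudogene. ABCB6 and ABCB8 lay only on probe sets that name several genes and were not analysed here.

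The cells were T47D, a luminal, oestrogen-receptor-positive line, and SUM159, a triple-negative line with mesenchymal features. Each line received 5 µM ID8, a small molecule known as an inhibitor of DYRK kinases, or its vehicle DMSO, for 72 hours. The cells were then stained with Aldefluor, a reagent that aldehyde dehydrogenases turn into a retained fluorescent product, and sorted into an Aldefluor+ and an Aldefluor- fraction. Each line thus gave the groups ID8 Aldefluor+, ID8 Aldefluor-, DMSO Aldefluor+ and DMSO Aldefluor-, with 3 arrays in each group and 1 array from each of 3 separate experiments, numbered 5, 6 and 7 for T47D and 2, 3 and 4 for SUM159. No engineered allele or transgene is given in the labels, and each line is a single model of its tumour type.

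ABC proteins bind and split ATP, and most use it to move a substrate across a membrane. Some pump drugs and conjugates out of the cell, such as ABCB1 (P-glycoprotein), ABCG2 (breast cancer resistance protein) and the ABCC family of multidrug resistance-associated proteins. Others move lipids and sterols, work in mitochondria and peroxisomes, or, as the ABCE and ABCF proteins do, have no membrane part and act on the ribosome. ABC pumps matter to the Aldefluor sort itself, since they can export the fluorescent product, and the assay buffer is known to hold an efflux inhibitor. ABCA12 is best known from skin, where it loads glucosylceramides into the lamellar granules of keratinocytes and where its loss causes harlequin ichthyosis.

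Values are log2 signals that the authors had adjusted for batch. In these values the mean difference between the lines had an SD of only 0.118 over all genes, so each line is described within itself and the levels of the lines are not set against each other. The line labels still held in the marker genes, with 12 of 12 T47D markers higher in T47D and 10 of 10 SUM159 markers higher in SUM159. The mean level of the leukocyte markers was 1.44 to 1.83 over the arrays, that of the endothelial markers 0.86 to 1.46 and that of the red cell marker 0.53 to 1.23, and 8 of these 9 markers had a mean below 2. ALDH1A1, an aldehyde dehydrogenase that the Aldefluor reaction can depend on, had an Aldefluor+ minus Aldefluor- log2 difference of 0.09 ± 0.121 in T47D (SE, adjusted p = 0.859), which did not pass the test, and of 2.91 ± 0.121 in SUM159 (SE, adjusted p = 1.27e-09), which did. ALDH1A3, another aldehyde dehydrogenase, is described by its group means only, and its test is not given here. In T47D it averaged 2.72 in Aldefluor+ and 1.94 in Aldefluor- cells with ID8, and 2.07 and 2.00 with DMSO. The 3 arrays of each ID8 fraction did not overlap, and the share of all genes apart in this way was not counted. In SUM159 it averaged 2.05 in Aldefluor+ and 1.88 in Aldefluor- cells with ID8, and 2.19 and 2.20 with DMSO. One array, of DMSO-treated Aldefluor+ SUM159 cells in experiment 4, had a narrower spread of values (interquartile range 2.88) than any of the others (2.97 to 3.12). Two-sided p-values come from limma with the experiment as a block and are adjusted over all 22395 genes, a gene being called at an adjusted p under 0.05. Having only 3 arrays in each group keeps the estimates imprecise. The authors' batch adjustment and the block both take out shifts shared by the arrays of an experiment. The p-values thus rest on the scatter left among these arrays after group and experiment are fitted, pooled over both lines. They do not measure the spread between experiments.

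The sequence before the start is shown first for 3 of the 5 called genes, because ABCA12 and ABCC5 were lower in the same sorted fraction of T47D and ABCG2 was lower with ID8 in SUM159. Each line holds the 250 bases upstream of a start site from RefSeq, build GRCh38.p14, written 5′ to 3′ on the gene's own strand, which is the minus strand for all of them. Capitals mark matches, on either strand, to the AP-1 site TGANTCA, the core of the dioxin response element GCGTG, the E-box CACGTG or the nuclear receptor half-site AGGTCA.
ABCA12 first start (chr2:215032087-215032336): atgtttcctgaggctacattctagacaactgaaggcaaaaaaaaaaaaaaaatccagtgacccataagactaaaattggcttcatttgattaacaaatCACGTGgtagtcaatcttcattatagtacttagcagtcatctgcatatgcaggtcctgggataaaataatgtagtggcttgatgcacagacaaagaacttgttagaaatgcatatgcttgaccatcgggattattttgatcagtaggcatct
ABCA12 second start (chr2:215138627-215138876): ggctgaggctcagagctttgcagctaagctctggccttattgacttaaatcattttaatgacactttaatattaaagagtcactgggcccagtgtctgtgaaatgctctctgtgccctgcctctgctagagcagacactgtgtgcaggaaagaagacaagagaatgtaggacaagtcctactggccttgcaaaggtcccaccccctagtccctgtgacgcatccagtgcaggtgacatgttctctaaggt
ABCC5 (chr3:184017885-184018134): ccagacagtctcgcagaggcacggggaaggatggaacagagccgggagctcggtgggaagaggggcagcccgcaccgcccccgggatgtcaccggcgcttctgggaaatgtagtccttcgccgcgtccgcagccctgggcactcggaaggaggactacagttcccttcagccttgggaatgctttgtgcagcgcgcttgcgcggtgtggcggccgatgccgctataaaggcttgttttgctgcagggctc
ABCG2 (chr4:88158640-88158889): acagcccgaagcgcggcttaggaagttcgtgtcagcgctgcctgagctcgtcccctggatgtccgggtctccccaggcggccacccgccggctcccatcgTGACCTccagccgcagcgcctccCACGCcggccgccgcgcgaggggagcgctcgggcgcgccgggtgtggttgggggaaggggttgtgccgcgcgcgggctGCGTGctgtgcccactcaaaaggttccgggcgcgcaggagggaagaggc

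The ABCA12 windows are in order of coordinate. On the minus strand the second lies before the outermost start, and the first lies inside the gene span, which ends at 215138626. The first ABCA12 window held 1 E-box, and the other ABCA12 window and the ABCC5 window held none of the 4 motifs. The ABCG2 window held 2 dioxin response cores and 1 nuclear receptor half-site. It was chosen for printing as the first by coordinate of the ABCG2 windows with the most matches. Of the other 4 windows of ABCG2, 2 held 2 dioxin response cores and 1 E-box each, and the rest held none of the motifs. The 3 windows of ABCC12, another called gene, also held none and are not printed. No printed match overlapped another. Over 35116 promoter windows of the same length, 32.2% held the dioxin response core, 12.1% the half-site, 6.57% the AP-1 site and 6.34% the E-box. Windows were found for 32 of the 41 genes, 49 windows in all, of which 21 held the dioxin response core, 2 the half-site, 5 the AP-1 site and 8 the E-box. Some windows of the same gene overlap, as in ABCG2, so these totals can count the same bases more than once. A match describes these letters only.

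ABCA12 was called in more comparisons than any other ABC gene. In T47D it was lower in the Aldefluor+ than in the Aldefluor- fraction, and lower with ID8 than with DMSO in Aldefluor+ cells. In ID8 Aldefluor+ cells its log2 signal was 2.82, 2.91 and 2.85 in experiments 5, 6 and 7, and in ID8 Aldefluor- cells it was 4.20, 4.35 and 4.29. In DMSO Aldefluor+ cells it was 3.85, 3.67 and 3.77, and in DMSO Aldefluor- cells 4.94, 4.89 and 5.00. None of the 4 groups overlapped another, with the ID8 Aldefluor+ cells at the bottom and the DMSO Aldefluor- cells at the top. In bulk RNA of a sorted fraction, fewer cells with a transcript and less of it per cell cannot be told apart.

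ABCA12 was lower with ID8 in T47D Aldefluor+ cells, at a log2 difference of -0.91 ± 0.128 (SE, 95% interval -1.18 to -0.63, adjusted p = 0.00735), which is 1.87-fold and was seen in 3 of 3 experiments. ABCA12 was the only one of the 41 genes called there, where 0.375% of all genes were called. In T47D Aldefluor- cells the difference was -0.67 (95% interval -0.94 to -0.39), also below 0 in 3 of 3 experiments, but its adjusted p of 0.113 missed the threshold, and no ABC gene was called by limma where 0.0179% of all genes were called, with 5 at an unadjusted p under 0.05 beside 6.6% of all genes. The difference between these effects was -0.24 ± 0.181 (95% interval -0.62 to 0.14, adjusted p = 0.931). Averaged over the fractions, the ID8 effect was -0.79 ± 0.0904 (adjusted p = 0.000853). With any one T47D experiment left out, the call in Aldefluor+ cells was lost, at log2 differences of -0.98 to -0.84 and adjusted p of 0.118 to 0.19. The call of the average was lost without experiment 5 (log2 difference -0.73, adjusted p = 0.0734).

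Between the sorted fractions of T47D, ABCA12 was lower in Aldefluor+ cells under both treatments. With ID8, ABCA12 averaged 2.86 ± 0.0437 in Aldefluor+ cells and 4.28 ± 0.0738 in Aldefluor- cells (SD, n = 3 each), and with DMSO it averaged 3.76 ± 0.0901 in Aldefluor+ cells and 4.94 ± 0.0557 in Aldefluor- cells (SD, n = 3 each). Over both treatments the log2 difference was -1.30 ± 0.0904 (95% interval -1.49 to -1.11, adjusted p = 1.64e-06), which is 2.46-fold lower. ABCA12 was the only ABC gene called in the fractions with ID8, among 0.366% of all genes, and in the fractions with DMSO, among 0.152%. The call with DMSO was lost without experiment 7 (log2 difference -1.15, adjusted p = 0.0543), and that with ID8 held without any one of the experiments, at adjusted p of 0.00497 to 0.0132. The average and these pairs share their arrays.

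SUM159 showed another order of ABCA12. Its log2 signal was 3.57, 3.91 and 3.73 in ID8 Aldefluor+ cells and 3.10, 3.17 and 3.18 in ID8 Aldefluor- cells of experiments 2, 3 and 4. With DMSO it was 3.34, 3.09 and 3.42 in Aldefluor+ cells and 3.62, 3.31 and 3.28 in Aldefluor- cells. The ID8 Aldefluor+ arrays were above the ID8 Aldefluor- arrays without overlap, while the DMSO fractions overlapped. No SUM159 comparison passed the test for ABCA12: the Aldefluor+ minus Aldefluor- difference with ID8 was 0.58 ± 0.128 (adjusted p = 0.091) and the ID8 effect in Aldefluor+ cells 0.45 ± 0.128 (adjusted p = 0.189).

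The averaged effects on ABCA12 differed between the lines. In SUM159 both averages join differences of opposite sign, as given above. The ID8 effect averaged over fractions was -0.79 in T47D and 0.10 in SUM159, a difference of -0.88 ± 0.128 (95% interval -1.15 to -0.61, adjusted p = 0.00445). ABCA12 was the only ABC gene called in that comparison, where 0.647% of all genes were called. The Aldefluor+ minus Aldefluor- difference averaged over treatments was -1.30 in T47D and 0.23 in SUM159, a difference of -1.53 ± 0.128 (95% interval -1.80 to -1.26, adjusted p = 1.21e-05), where 0.478% of all genes were called. The first of these calls was lost without experiment 5 (log2 difference -0.83, adjusted p = 0.0539). The cells and RNA collected also moved with ID8. Within each experiment and fraction, both amounts were lower with ID8 than with DMSO in T47D. In SUM159 they were higher with ID8, except in the Aldefluor- cells of experiment 2. Whether these amounts bear on the signals was not tested.

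**Figure D1:**
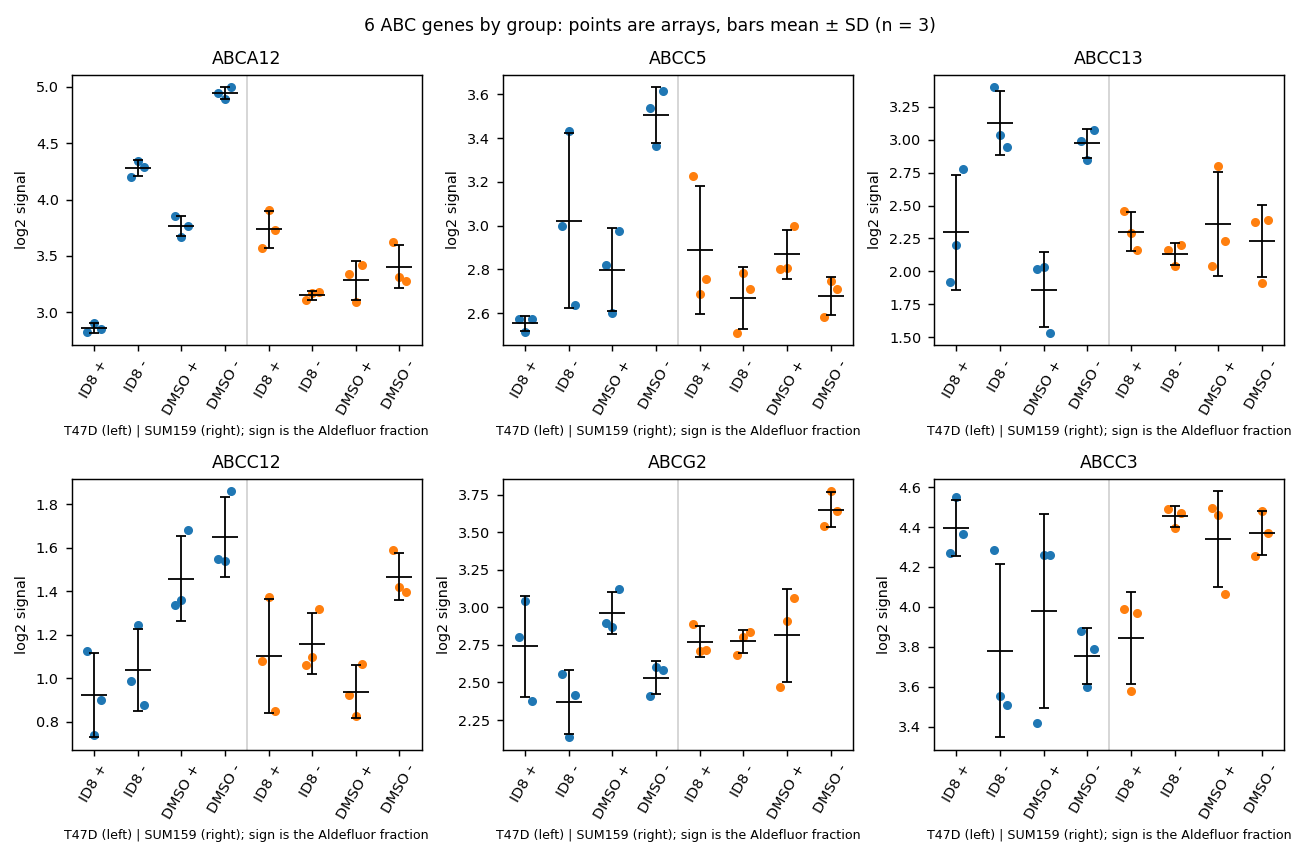
Log2 signal of ABCA12, ABCC5, ABCC13, ABCC12, ABCG2 and ABCC3 in the 4 groups of T47D (blue) and of SUM159 (orange), with points for arrays and bars for the mean ± SD (n = 3). ABCA12 separates the 4 T47D groups, from 2.82 to 2.91 in ID8 Aldefluor+ cells up to 4.89 to 5.00 in DMSO Aldefluor- cells, and ABCG2 stands highest in SUM159 DMSO Aldefluor- cells at 3.54 to 3.77.

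ABCC5 and ABCC13 were the other ABC genes that were lower in the Aldefluor+ fraction of T47D. ABCC5, an exporter of cyclic nucleotides and of other organic anions, had a log2 signal of 2.57, 2.51 and 2.57 in ID8 Aldefluor+ cells and of 3.00, 3.43 and 2.64 in ID8 Aldefluor- cells. In DMSO cells it was 2.82, 2.60 and 2.97 in the Aldefluor+ fraction and 3.54, 3.37 and 3.62 in Aldefluor- cells. The fractions did not overlap within a treatment, and the ID8 Aldefluor- arrays were spread widely. Averaged over treatments the log2 difference was -0.59 ± 0.133 (95% interval -0.87 to -0.31, adjusted p = 0.048), lower in 3 of 3 experiments. The ABCC5 call was lost without any one T47D experiment (adjusted p of 0.0825 to 0.319), in a fit on the 12 T47D arrays alone (adjusted p = 0.127), with all probe sets tested (adjusted p = 0.0961) and with experiment 4's SUM159 DMSO Aldefluor+ array left out (adjusted p = 0.0547).

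The pseudogene ABCC13 had a log2 signal of 1.92, 2.20 and 2.77 in T47D ID8 Aldefluor+ cells and of 3.40, 3.04 and 2.94 in ID8 Aldefluor- cells. Its values with DMSO were 2.02, 2.03 and 1.53 in Aldefluor+ cells and 2.99, 2.85 and 3.07 in Aldefluor- cells. All 6 Aldefluor+ arrays were below all 6 Aldefluor- arrays. The average difference was -0.97 ± 0.169 (95% interval -1.33 to -0.61, adjusted p = 0.0088), and the call was lost without experiment 5 (log2 difference -0.84, adjusted p = 0.153) or experiment 6 (log2 difference -1.04, adjusted p = 0.0888). With ABCA12, 3 of 41 ABC genes were called in this average, all lower in Aldefluor+ cells, where 0.875% of all genes were called and 0.371% were called lower. In the same comparison 2 ABC genes, ABCA12 and ABCC13, had no overlap between 6 arrays and 6, against 1.89% of all genes.

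In SUM159 neither gene showed a called fraction difference. The average was 0.21 ± 0.133 for ABCC5 (adjusted p = 0.737) and 0.15 ± 0.169 for ABCC13 (adjusted p = 0.872). The difference between the lines was -0.79 for ABCC5 (95% interval -1.19 to -0.40, adjusted p = 0.0843) and -1.12 for ABCC13 (95% interval -1.63 to -0.61, adjusted p = 0.0502), and both missed the threshold.

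ABCG2, the half-transporter whose dye efflux defines side population cells, was lower with ID8 in the Aldefluor- cells of SUM159. Its log2 signal was 2.89, 2.71 and 2.72 in ID8 Aldefluor+ cells and 2.69, 2.80 and 2.83 in ID8 Aldefluor- cells. With DMSO it was 2.47, 2.91 and 3.06 in Aldefluor+ cells and 3.54, 3.77 and 3.64 in Aldefluor- cells. The 3 DMSO Aldefluor- arrays stood above all the other SUM159 arrays, and the other 3 groups overlapped one another. In Aldefluor- cells the ID8 effect was -0.88 ± 0.175 (95% interval -1.25 to -0.51, adjusted p = 0.0465), which is 1.84-fold lower, in 3 of 3 experiments. ABCG2 was the only ABC gene called there, where 0.277% of all genes were called.

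The ABCG2 call was lost without any one SUM159 experiment (log2 difference -0.91 to -0.83, adjusted p of 0.272 to 0.454), in a fit on the 12 SUM159 arrays alone (adjusted p = 0.0806), with quantile normalization added (adjusted p = 0.0804), with limma's trend and robust options (adjusted p = 0.0546) and with all probe sets tested (adjusted p = 0.108). In SUM159 Aldefluor+ cells the ID8 effect was -0.04 (95% interval -0.41 to 0.33). The difference between the effects in the fractions, 0.84 ± 0.247, did not pass the test (adjusted p = 0.54). The fractions of SUM159 with DMSO differed by -0.84 ± 0.175 in ABCG2, in 3 of 3 experiments, with an adjusted p of 0.169. No ABC gene was called by limma in those fractions, where 0.0223% of all genes were called and 5 ABC genes were at an unadjusted p under 0.05, beside 7.95% of all genes.

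In T47D, ABCG2 was 2.80, 3.04 and 2.37 in ID8 Aldefluor+ cells and 2.56, 2.13 and 2.42 in ID8 Aldefluor- cells. With DMSO it was 2.89, 2.87 and 3.12 in Aldefluor+ cells and 2.41, 2.61 and 2.58 in Aldefluor- cells. The fractions overlapped with ID8 and were apart with DMSO. The average fraction difference was 0.40 ± 0.123 (95% interval 0.14 to 0.66, adjusted p = 0.179) in T47D and -0.42 ± 0.123 (95% interval -0.68 to -0.16, adjusted p = 0.275) in SUM159. The difference between the lines was 0.82 ± 0.175 (95% interval 0.45 to 1.19), and its adjusted p of 0.0500 lay just above the threshold.

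Among the other efflux genes, ABCC12 was called once. Its log2 signal in T47D was 1.12, 0.74 and 0.90 in ID8 Aldefluor+ cells and 0.99, 1.25 and 0.88 in ID8 Aldefluor- cells. The DMSO arrays gave 1.33, 1.36 and 1.68 in Aldefluor+ cells and 1.55, 1.54 and 1.86 in Aldefluor- cells. All 6 ID8 arrays were below all 6 DMSO arrays, which was so for 1.54% of all genes in either direction. All these values lie below 2, where signal over background is small. The average ID8 effect was -0.57 ± 0.117 (95% interval -0.82 to -0.32, adjusted p = 0.0404). ABCC12 and ABCA12 were the 2 ABC genes called in that average, both lower with ID8, where 0.505% of all genes were called and 0.116% called lower. The ABCC12 call was lost without any one T47D experiment (adjusted p of 0.196 to 0.399), in a fit on the T47D arrays alone (adjusted p = 0.103), with array weights in that fit (adjusted p = 0.11) and with all probe sets tested (adjusted p = 0.0872).

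ABCB1, which encodes P-glycoprotein, was below 2 on all 24 arrays, with values of 0.91 to 1.58 in T47D and of 0.88 to 1.63 in SUM159. Its averaged differences lay between -0.06 and 0.10 in both lines, and their 95% intervals reached no further than -0.40 (ID8 in SUM159) and 0.44 (fractions in SUM159). At this signal a change in ABCB1 could be missed.

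ABCC1, which exports glutathione conjugates, showed averaged differences of 0.14 for ID8 in T47D (95% interval -0.20 to 0.49) and of 0.00 for ID8 in SUM159 (95% interval -0.34 to 0.35). For the Aldefluor fractions its difference was 0.09 in T47D (95% interval -0.25 to 0.44) and 0.12 in SUM159 (95% interval -0.22 to 0.47). ABCC4, an exporter of cyclic nucleotides and prostaglandins, had differences of -0.04 for ID8 and -0.01 for the fractions in T47D, and of -0.19 for each in SUM159. None passed the test, and the 95% intervals of ABCC4 for ID8 ran from -0.31 to 0.22 in T47D and from -0.45 to 0.08 in SUM159.

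ABCC3, an exporter of glucuronides, had a log2 signal of 4.27, 4.55 and 4.36 in T47D ID8 Aldefluor+ cells and of 4.28, 3.55 and 3.51 in T47D ID8 Aldefluor- cells. In SUM159 it was 3.99, 3.58 and 3.97 in ID8 Aldefluor+ cells and 4.49, 4.40 and 4.47 in ID8 Aldefluor- cells. The SUM159 fractions did not overlap with ID8, and those of T47D overlapped through experiment 5. The difference was 0.61 ± 0.236 in T47D (adjusted p = 0.436) and -0.61 ± 0.236 in SUM159 (adjusted p = 0.529). Averaged over treatments, the fraction difference in T47D was 0.42 ± 0.167 (adjusted p = 0.332). Without experiment 5 it was 0.75 and passed the test (adjusted p = 0.0343), and without experiment 6 it was 0.21 (adjusted p = 0.815). Between the lines, the averaged fraction difference was 0.74 (95% interval 0.24 to 1.24, adjusted p = 0.256).

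ABCC2, the canalicular exporter of bilirubin conjugates in liver, was 1.53, 1.86 and 1.79 in SUM159 ID8 Aldefluor+ cells and 2.19, 3.24 and 3.38 in SUM159 ID8 Aldefluor- cells. With DMSO it was 3.09, 2.66 and 2.19 in Aldefluor+ cells and 2.86, 2.20 and 2.72 in Aldefluor- cells. The ID8 Aldefluor+ arrays of SUM159 were below all its other arrays. The difference from ID8 Aldefluor- cells was -1.21 ± 0.312 (95% interval -1.87 to -0.55, adjusted p = 0.194). That from DMSO Aldefluor+ cells was -0.92 ± 0.312 (95% interval -1.58 to -0.26, adjusted p = 0.276), and the comparisons share the ID8 Aldefluor+ arrays. In T47D its differences in the 4 pairs lay between -0.10 and 0.03. ABCC10, another multidrug resistance-associated protein, differed by 0.40 ± 0.196 between the T47D fractions with ID8 (adjusted p = 0.581).

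**Figure D2:**
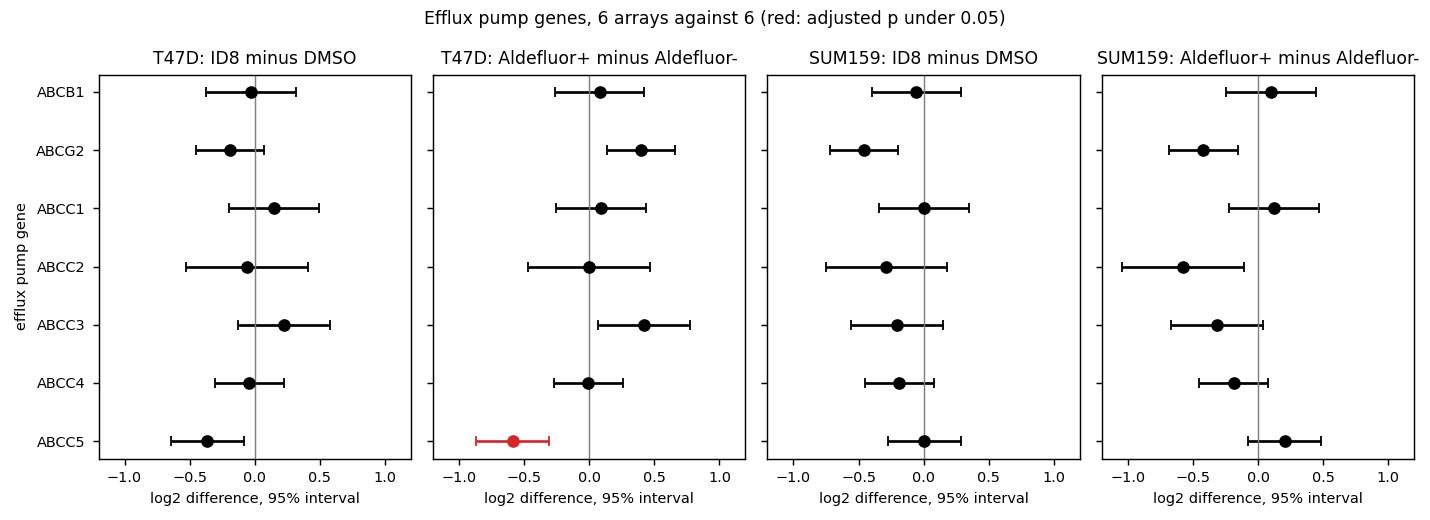
Log2 differences (points, 6 arrays against 6) and 95% intervals of 7 efflux pump genes, for ID8 minus DMSO and Aldefluor+ minus Aldefluor- in T47D (left) and SUM159 (right), averaged over the other factor. ABCC5 in the T47D fractions, at -0.59, is the only one of these 28 differences called (red), and ABCG2 lies at 0.40 in the T47D fractions and at -0.42 in the SUM159 fractions.

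Over all 41 genes, most calls were of ABCA12. In the 8 comparisons of pairs there were 4 calls among 328 gene and comparison pairs, 3 of ABCA12 and 1 of ABCG2, all lower. Each of these 8 called 0.0179% to 0.375% of all genes. Over all 16 comparisons, with averages and differences of effects, 5 genes were called, ABCA12, ABCG2, ABCC5, ABCC12 and ABCC13, and 36 were not. Each of the 16 called 0% to 0.875% of all genes, and the share called in at least 1 of them was not counted. Every call over these 16, in the fit on all arrays, was of a negative difference. Of all genes, 0.0848% were called lower for ID8 in T47D Aldefluor+ cells, 0.147% and 0.0625% in the T47D fractions with ID8 and with DMSO, and 0.0893% for ID8 in SUM159 Aldefluor- cells. Between the lines, 0.263% had a called negative difference of the ID8 effect and 0.192% of the fraction difference.

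Counts of 0 by limma were read with the share of all genes and the unadjusted count. ID8 in SUM159 Aldefluor+ cells called 0 ABC genes against 0.241% of all genes, with 6 at an unadjusted p under 0.05, which 10.3% of all genes reached. The SUM159 fractions with ID8 called 0 against 0.201%, with 5 at an unadjusted p under 0.05 against 7.52% of all genes. The average ID8 effect in SUM159 called 0 against 0.688%, with 6 unadjusted against 11.3% of all genes, and the average fraction difference in SUM159 called 0 against 0.219%, with 9 unadjusted against 8.46% of all genes. The difference of the ID8 effect between fractions called 0 in T47D, where 0% of all genes were called and 2 ABC genes were at an unadjusted p under 0.05 beside 5.93% of all genes. In SUM159 it called 0 against 0.00447%, with 6 unadjusted against 7.06% of all genes. A single call among 41 is 2.44%.

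The median log2 difference of the family stayed near that of all genes. For the average ID8 effect it was -0.04 in T47D, with -0.01 over all genes, and -0.03 in SUM159, with -0.01 over all genes. For the average fraction difference it was 0.05 in T47D and -0.02 in SUM159, with 0.00 and -0.01 over all genes. For ID8, 14 of 41 genes were above 0 in T47D, beside 48.4% of all genes, and 16 in SUM159, beside 47.9%. For the fractions, 24 of 41 were above 0 in T47D, beside 49.3%, and 17 in SUM159, beside 48.4%.

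**Figure D3:**
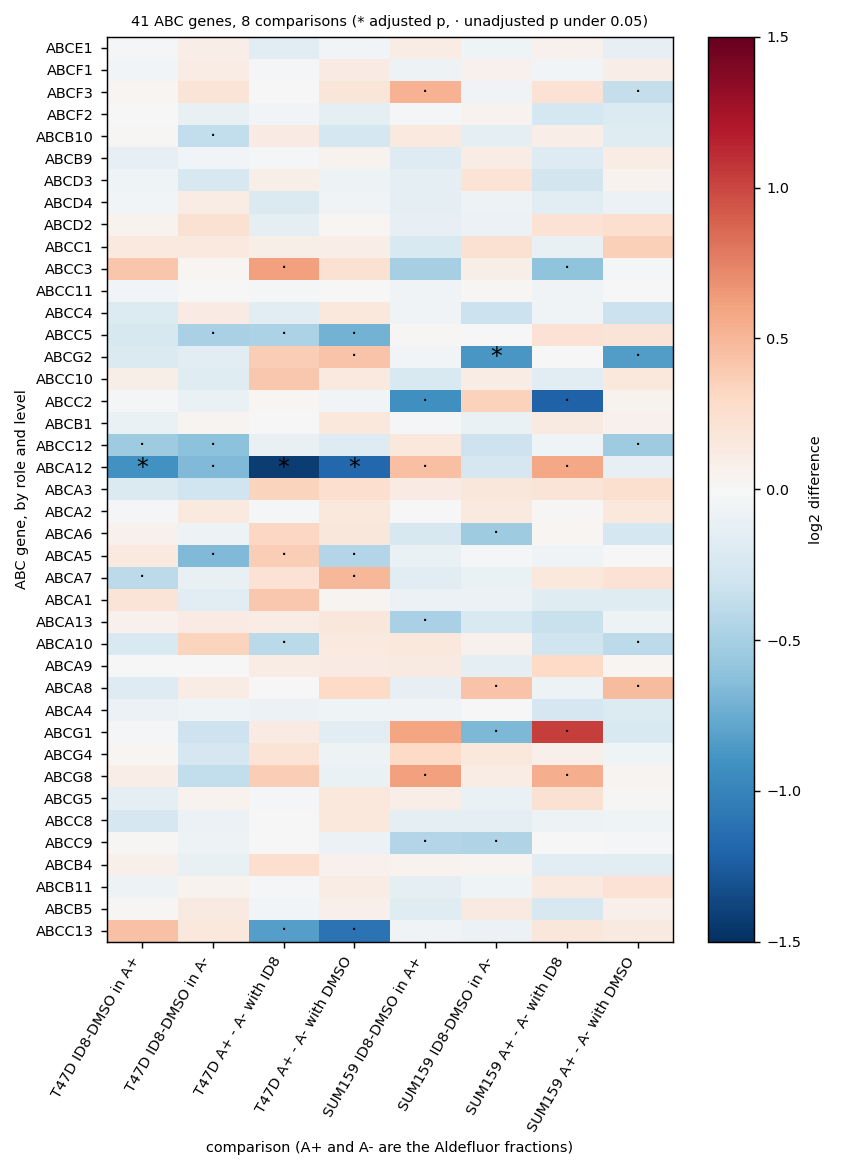
Log2 differences of the 41 ABC genes (rows, grouped by role) in the 8 comparisons of pairs (columns, T47D left and SUM159 right), red for higher and blue for lower, with a star for an adjusted p and a dot for an unadjusted p under 0.05. The 3 stars of ABCA12 and the 1 of ABCG2 are the 4 calls, and most rows are pale.

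The lipid transporters of subfamily A include ABCA12. Of the 12 genes measured, ABCA12 alone was called in any comparison. ABCA5, a lysosomal transporter linked to cholesterol handling, averaged 3.18 ± 0.265 in T47D ID8 Aldefluor+ cells and 2.81 ± 0.169 in ID8 Aldefluor- cells, and 3.03 ± 0.0252 in DMSO Aldefluor+ cells and 3.48 ± 0.0972 in DMSO Aldefluor- cells (SD, n = 3 each). The ID8 effect on ABCA5 in T47D Aldefluor- cells was -0.67 ± 0.156 (adjusted p = 0.337), next to -0.67 ± 0.128 for ABCA12 in the same cells. ABCA7, a phospholipid transporter with a mean below 2, differed by 0.50 ± 0.164 between the T47D fractions with DMSO (adjusted p = 0.341), a direction opposite to that of ABCA12. ABCA6, also of the lipid transporter subfamily, had an average ID8 effect of -0.39 ± 0.125 in SUM159 (adjusted p = 0.209). ABCA3, which loads surfactant lipids into lamellar bodies of the lung, had averaged differences of -0.26 to 0.29. ABCA1, the exporter of cholesterol to lipid-poor apolipoprotein, had a mean of 1.69 over the arrays.

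In SUM159, separation of 6 arrays from 6 was seen in 1 ABC gene. ABCA4, the retinal lipid transporter, was the only ABC gene whose Aldefluor+ arrays did not overlap the Aldefluor- arrays there, as 0.889% of all genes did. It was 0.57 to 0.75 in Aldefluor+ cells and 0.82 to 0.95 in Aldefluor- cells, below 2 on each of these arrays, with a difference of -0.23 ± 0.0863 (adjusted p = 0.469). For ID8 against DMSO no ABC gene of SUM159 separated in this way, beside 1.88% of all genes.

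ABCG1, which moves cholesterol to high-density lipoprotein, stood apart in SUM159 with ID8. It was 3.49, 3.36 and 3.36 in ID8 Aldefluor+ cells and 2.39, 2.47 and 2.25 in ID8 Aldefluor- cells, with 3.01, 2.62 and 2.80 in DMSO Aldefluor+ cells and 2.92, 3.00 and 3.20 in DMSO Aldefluor- cells. The ID8 fractions lay on either side of the DMSO arrays without overlap. The difference between the ID8 fractions was 1.03 ± 0.289 (95% interval 0.42 to 1.65, adjusted p = 0.258) and did not pass. In T47D the SD of its 3 arrays was 0.298 to 0.621 by group, and in SUM159 0.0728 to 0.196. The fit on all arrays shares 1 estimate of spread between the lines. A fit on the SUM159 arrays alone called ABCG1 as the only ABC gene in that comparison. Its share of all genes called is not given here, and why the fits differ was not tested.

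None of the ABC genes that act on ribosomes, mitochondria or peroxisomes was called. The soluble factors ABCE1, which splits ribosomes for recycling, ABCF1, ABCF2 and ABCF3 had averaged differences of -0.23 to 0.23, and none was called in any of the 16 comparisons. ABCF3 averaged 5.73 ± 0.162 in SUM159 ID8 Aldefluor+ cells and 5.21 ± 0.234 in DMSO Aldefluor+ cells (SD, n = 3 each), a difference of 0.52 ± 0.144 (adjusted p = 0.176). ABCB10, a mitochondrial half-transporter needed for haem synthesis, and ABCB9, a lysosomal peptide transporter, had averaged differences of -0.18 to 0.02. The ABCD genes measured were ABCD3, which brings fatty acids into peroxisomes, ABCD4, which acts in lysosomal cobalamin export, and ABCD2, and their averaged differences lay between -0.15 and 0.23.

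Of the 41 genes, 22 had a mean of at least 2 over the 24 arrays and 19 had a mean below 2, or 46.3%, beside 49% of all genes. All 4 soluble factors and 8 of 10 efflux genes were at 2 or more, the exceptions among these being ABCB1 and ABCC12. Of the ABCA genes 5 of 12 were at 2 or more, ABCA12, ABCA3, ABCA2, ABCA6 and ABCA5, and of the sterol ABCG genes 1 of 4, ABCG1. ABCB4 and ABCB11, transporters of bile lipids and bile salts in liver, ABCB5, and ABCC8 and ABCC9, regulators of potassium channels, were all below 2. The signals of different probe sets do not measure the relative amounts of their transcripts.

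**Figure D4:**
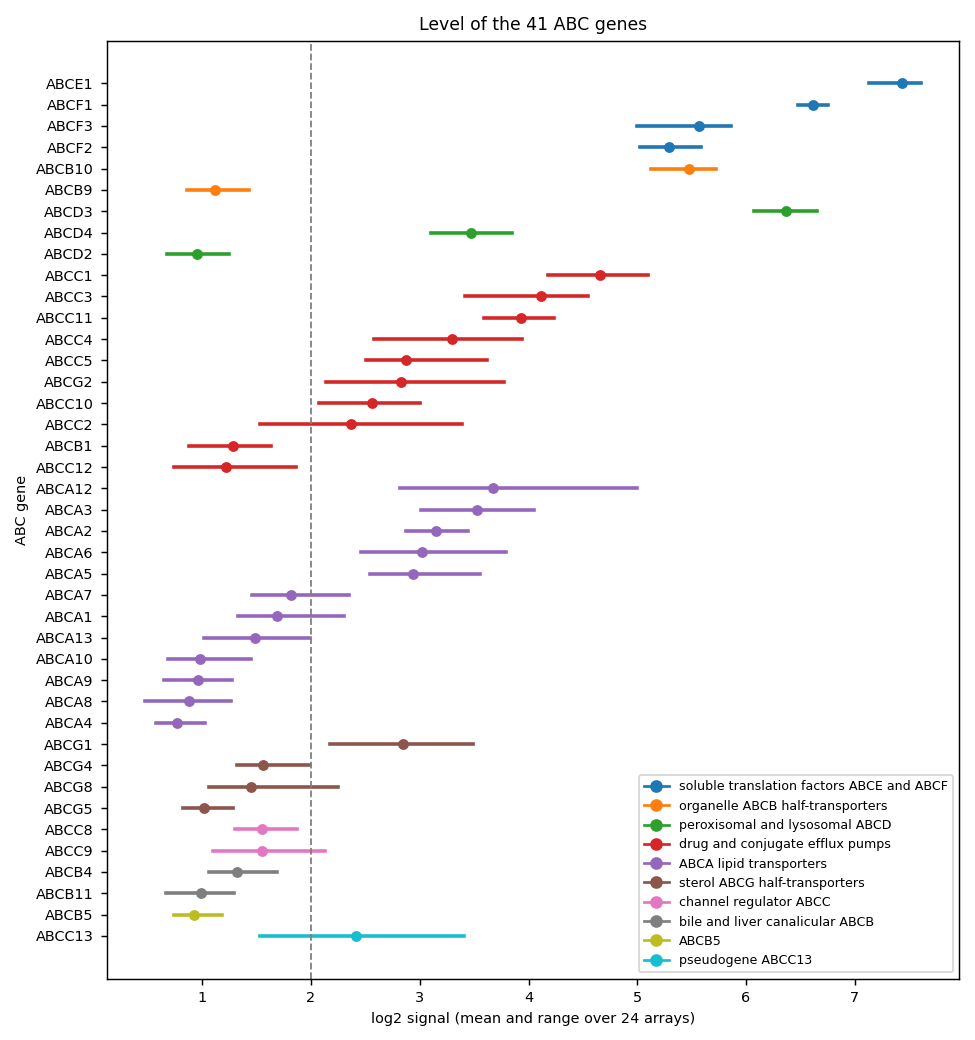
Mean (point) and range (line) of the log2 signal over 24 arrays for each of the 41 ABC genes, coloured by role, with a dashed line at 2, below which signal over background is small. ABCA12 spans 2.82 to 5.00 and ABCF1 spans 6.48 to 6.75, and 19 genes have their mean left of the dashed line.

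Genes that work with the ABC proteins were read from lists by role. Of 13 measured genes of the skin barrier lipid pathway in which ABCA12 acts, 1 was called for the average ID8 effect in T47D, beside 0.505% of all genes, and it was higher. It was UGCG, the synthase that makes the glucosylceramides ABCA12 transports, with a log2 difference of 0.56 ± 0.0906 (adjusted p = 0.00905), where ABCA12 was at -0.79. Among the 13, 2 were lower at an unadjusted p under 0.05, as 5.44% of all genes were. SULT2B1, the cholesterol sulfotransferase, had the lowest difference, -0.51 ± 0.163 (adjusted p = 0.221). None of the 13 was called for the fraction average in T47D, beside 0.875% of all genes. Of the 13, 9 had a mean below 2, where a change could be missed. At an unadjusted p under 0.05, 3 of the 13 were higher there, as 5.55% of all genes were. Of 13 measured nuclear receptors and other regulators, 1 was called for the T47D fraction average, beside 0.875% of all genes. It was AHR, the dioxin receptor, at 0.56 ± 0.0949 (adjusted p = 0.00704).

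In SUM159, 2 of 8 measured genes of conjugation and glutathione supply were called for the average ID8 effect, beside 0.688% of all genes. SULT1E1, the oestrogen sulfotransferase, was higher by 1.85 ± 0.143 (adjusted p = 4.06e-06), and NQO1, a quinone reductase, was lower, at -0.33 ± 0.0693 (adjusted p = 0.0378). Of 5 measured peroxisome genes 1 was called in the same comparison, beside the same 0.688%. It was SLC27A2, an activator of very long-chain fatty acids, at 0.67 ± 0.116 (adjusted p = 0.00897). The partners of TAP1 and TAP2, the targets of the liver X receptors other than ABC genes, the iron-sulfur and haem genes and the ribosome recycling genes gave no call in any of the 16 comparisons. Those comparisons called 0% to 0.875% of all genes.

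Genes whose signal followed ABCA12 over the 12 T47D arrays were named among 11417 genes with a mean of at least 2. These are descriptions, since the 12 arrays share 4 groups and 3 experiments. The highest Pearson correlations were those of MMP16 at 0.977, DCPH1 at 0.977, ANGPT1 at 0.974, SNRNP48 at 0.972 and AMN1 at 0.966. The lowest were those of NTN4 at -0.987, SERPINI1 at -0.984 and AFG2A at -0.98. Among ABC genes ABCC5 came nearest at 0.867, and ABCC3 was lowest at -0.674. Over the 12 SUM159 arrays the correlation of ABCA12 was 0.143 with ABCC5, 0.124 with MMP16 and -0.387 with NTN4. It was -0.554 with DCPH1, -0.543 with ANGPT1, -0.098 with SNRNP48 and -0.022 with AMN1 there. With SERPINI1 it was 0.345, and with AFG2A -0.716.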

How the data were processed

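RNA of 24 sorted samples was amplified and hybridised to Affymetrix Human Gene ST 2.1 arrays. The deposited values are log2 signals that the authors made by robust multiarray averaging and adjusted for batch with ComBat, per the design text and the submitters' processing notes; the design text names experiment and processing as its batches, with its version and covariates not given in the sources used here. It may also compress differences within a line.

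Names came from the platform's probe annotation, with symbols updated to RefSeq (GRCh38.p14). Of 53617 probe sets, 23871 had 1 symbol and 1842 several. The probe set with the highest mean stood for a gene. limma 3.58.1 (R 4.3.3; lmFit, eBayes) fitted 8 group means and, in each line, experiment as a block, and p-values were Benjamini-Hochberg adjusted over 22395 genes. The test was tested on simulated data. The alternatives were no block, each experiment left out, a minimum mean, quantile normalization, the mean of all probe sets, trend and robust, all probe sets, each line alone, 1 array left out, and array weights.

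The labels give each number as a separate experiment, which pairs the samples. Deviations from group means correlated between -0.408 and -0.266 in the same experiment and between 0.0986 and 0.244 otherwise, in values already adjusted for experiment. Named genes were the ABC genes called, ABCB1, ABCG2, ABCC1 to ABCC5, ABCA12, the 2 highest and 2 lowest differences with a mean of at least 2, the highest signal of each role, and the genes most like ABCA12. The members, gene lists and rules were chosen with earlier results of these data known.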

Additional observations from a re-analysis of the deposited data

Results flagged for a closer look

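ABCA12 differed between the lines in both of its averaged effects, by a test of the difference itself. Both SUM159 averages join differences of opposite sign. For ID8 these were 0.45 in Aldefluor+ and -0.25 in Aldefluor- cells, and for the fractions 0.58 with ID8 and -0.12 with DMSO. The ID8 effect was -0.79 ± 0.0904 in T47D and 0.10 ± 0.0904 in SUM159 (SE), a difference of -0.88 (limma adjusted p = 0.00445), below 0 in 3 of 3 T47D experiments and above 0 in 2 of 3 SUM159 experiments. The Aldefluor+ minus Aldefluor- difference was -1.30 ± 0.0904 in T47D and 0.23 ± 0.0904 in SUM159 (SE), a difference of -1.53 (limma adjusted p = 1.21e-05), below 0 in 3 of 3 T47D experiments and above 0 in 3 of 3 SUM159 experiments. With any one experiment of either line left out, the first difference lay between -1.005 and -0.77 and the second between -1.60 and -1.48.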

How the results depend on the processing

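Of the counts of ABC genes called, 152 were within 1.5 times of the value reported under an alternative, 15 were higher and 20 lower. The 152 include counts of 0 that stayed at 0. Without the replicate block the count was 2 for ID8 in SUM159 Aldefluor+ cells (ABCA12, ABCF3), 2 for the ID8-treated SUM159 fractions (ABCA12, ABCC2), 1 for those with DMSO (ABCG2), 1 for the average ID8 effect in SUM159 (ABCG2), 1 for ID8 in T47D Aldefluor- cells (ABCA12), 3 for the T47D fractions with DMSO (ABCA12, ABCC13, ABCC5) and 4 for the fraction difference between lines (ABCA12, ABCC13, ABCC5, ABCG2). That fit takes no account of the authors' earlier adjustment for experiment. The block changed no other count by over 1.5 times. With genes of a mean of at least 2 only, which tests fewer genes, the count was 1 for the ID8-treated SUM159 fractions, 2 for the DMSO-treated T47D fractions, 1 for the average ID8 effect in T47D and 4 for the fraction difference between lines. For ID8 in SUM159 Aldefluor- cells it was 0 with quantile normalization, with trend and robust, with all probe sets and on SUM159 arrays alone. For the fraction difference between lines it was 2 with quantile normalization, with trend and robust, and without SUM159 DMSO Aldefluor+ replicate 4. For the average ID8 effect in T47D it was 1 with all probe sets, on T47D arrays alone and with array weights. On SUM159 arrays alone it was 1 for the SUM159 fractions with ID8 (ABCG1). The causes were not tested. The share of all genes called in each alternative is not given beside these counts or those that follow. A changed count is thus not read as particular to the ABC genes.

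Leaving out 1 experiment, which also removes arrays, gave 0 for ID8 in SUM159 Aldefluor- and T47D Aldefluor+ cells, 0 to 1 for the average ID8 effect in T47D, the T47D fractions with DMSO and the ID8 effect between lines, 1 to 2 for the average T47D fractions, and 1 to 2 for the fraction difference between lines. In 21 cases a single gene that was not called changed sign. Ranges that crossed 0 for the ID8 effect were, in SUM159, -0.19 to 0.13 for ABCB1, -0.0889 to 0.178 for ABCC1, -0.495 to 0.128 for ABCC2 and -0.0814 to 0.0673 for ABCC5, and in T47D -0.0565 to 0.00515 for ABCB1, -0.0327 to 0.27 for ABCC1, -0.204 to 0.022 for ABCC2 and -0.158 to 0.133 for ABCC4. For the fractions they were -0.0246 to 0.214 for ABCB1 in SUM159, and in T47D -0.0671 to 0.223 for ABCB1, -0.0471 to 0.359 for ABCC1, -0.0814 to 0.147 for ABCC2 and -0.0996 to 0.0748 for ABCC4. Otherwise ABCC5 was at -0.0047 for ID8 in SUM159 with quantile normalization, ABCC1 at -0.07 there without SUM159 DMSO Aldefluor+ replicate 4, and ABCC2 at 0.0178 and ABCC4 at 0.0063 in the T47D fractions with array weights. The 2 last alternatives were chosen after seeing the data. Signal over background limits the 19 ABC genes with a mean below 2.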

Other observations

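ABCC11, an exporter expressed in apocrine glands, had the smallest spread of the 41 ABC genes within groups, with a residual SD of 0.0178 beside a median of 0.184 and a highest value of 0.369. Its log2 signal was 4.18 to 4.23 over the 12 T47D arrays and 3.59 to 3.70 over the 12 SUM159 arrays. These values were already adjusted for batch, so the levels of the lines are not set against each other. Why the spread of ABCC11 was small was not tested.

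Over the 12 T47D arrays ABCA12 correlated with ABCG1 at 0.0757 and with ABCC3 at -0.674, and over the 12 SUM159 arrays at 0.779 with ABCG1 and -0.891 with ABCC3 (Pearson, over arrays that share 4 groups and 3 experiments).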
